A study of Homo sapiens with 12 samples.

Results

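The cytosolic and endosomal RNA sensing genes were described here as 10 genes of the 60660 listed in each library: DDX58, IFIH1, DHX58, TLR3, EIF2AK2, ADAR, MAVS, TBK1, IKBKE and IRF3. They were chosen by symbol, not by a measured value, and each symbol matched 1 row. The libraries are mRNA sequencing of 2 human prostate cancer (PCa) cell lines, LNCaP, an androgen-sensitive line from a lymph node metastasis, and 22Rv1, a line from a xenograft that relapsed after castration. Each line was transfected with piR-4447944 mimic, a synthetic copy of a PIWI-interacting RNA (piRNA), or with its negative control (NC-mimic), and both arms were under androgen deprivation in medium with charcoal-stripped serum. There were 3 libraries in each of the 4 groups, called LNCaP control, LNCaP mimic, 22Rv1 control and 22Rv1 mimic. Per the study's methods the mimic was a monophosphate RNA with a 2′ O-methoxy modification, delivered with lipofectamine. The control arm also received an RNA oligo, so no library shows these genes without transfection.

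RNA of foreign or misplaced origin is read in human cells by a small set of proteins. In the cytosol the helicases RIG-I (DDX58) and MDA5 (IFIH1) bind short or long double-stranded RNA and signal through MAVS on mitochondria, and LGP2 (DHX58) modulates both. In endosomes TLR3 binds double-stranded RNA and signals through the adaptor TICAM1. Both routes reach the kinases TBK1 and IKKε (IKBKE), which phosphorylate IRF3, the factor that turns on interferon-β and early antiviral genes. PKR (EIF2AK2) halts translation on binding double-stranded RNA, and ADAR edits such RNA so that the cell's own duplexes are not sensed. Several of these genes are themselves raised by interferon, and an interferon-stimulated response element (ISRE) in the promoter is the classical site for it.

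Reference promoter sequences are shown first, so that the genes that carry the letters of this element can be told from those that do not when their levels are read. RefSeq windows of 300 bases (GRCh38.p14) were found for 8 of the 10 genes, all but DHX58 and IRF3, with 3 windows for ADAR and 1 for each of the others. GAAANNGAAA was searched on both strands as the core of an ISRE and lay in 3.57% of all 35116 windows. It was found in 3 of the 8 genes, IFIH1, TLR3 and EIF2AK2. The stretches below are 50 bases each, 5′ to 3′ on the strand of the gene, with the match in capitals; in IFIH1, TLR3 and IFIT1 the matches are on the other strand, and the 2 shown for IFIH1 overlap.
IFIH1, chr2:162318814-162318863, minus strand: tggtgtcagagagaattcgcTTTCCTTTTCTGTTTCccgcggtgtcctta
TLR3, chr4:186069132-186069181, plus strand: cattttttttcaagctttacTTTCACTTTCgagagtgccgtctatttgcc
EIF2AK2, chr2:37156957-37157006, minus strand: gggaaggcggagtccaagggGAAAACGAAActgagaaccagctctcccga
IFIT1, chr10:89392487-89392536, plus strand: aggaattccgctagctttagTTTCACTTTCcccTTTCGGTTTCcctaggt
CXCL10, chr4:76023689-76023738, minus strand: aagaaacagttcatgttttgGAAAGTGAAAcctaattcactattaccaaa
The match begins 4 bases before the RefSeq start of the window in TLR3 and 6 bases before it in EIF2AK2. The first of the 3 matches in IFIH1 begins 159 bases before that start. The GENCODE v44 spans of TLR3 and EIF2AK2 begin further upstream than these RefSeq starts. IFIT1, which encodes a protein that binds foreign RNA ends, and the chemokine gene CXCL10 are shown for comparison as known targets of the pathway. These letters were not in the windows of DDX58, ADAR, MAVS, TBK1 or IKBKE. A match is a description of the sequence and was not tested as a binding site.

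All 10 genes are annotated as protein coding in GENCODE v44 on hg38. DDX58, listed there as RIGI, spans chr9:32455302-32526208, IFIH1 spans chr2:162267074-162318684, TLR3 spans chr4:186068911-186088073 and MAVS spans chr20:3846799-3876123. A share of 43.2% of the exonic bases of DDX58 is also exonic in the protein coding gene ENSG00000288684 on the same strand, so reads from those bases cannot be told apart by any strand setting, and the values of DDX58 may hold reads of both. A share of 19.3% of the exonic bases of IRF3 is also exonic in BCL2L12 on the opposite strand. The strand setting of the counting was not given in the sources used here, so reads of IRF3 and BCL2L12 may not be told apart there.

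The libraries held between 12161091 and 22179601 expected counts, of which the 10 genes took 9152 to 19327, or 0.0753% to 0.0973% of a library. Of the 10 luminal prostate markers, 10 were at or above 1 TPM in every library, with a summed level of 4968 to 5405 TPM in LNCaP and 1979 to 2652 TPM in 22Rv1. The summed level was 1.80 to 6.56 and 1.98 to 10.3 TPM for 6 immune cell markers, 26.25 to 44.4 and 4.61 to 23.1 TPM for 4 fibroblast markers, and 0.79 to 1.89 and 0 to 0.08 TPM for 3 endothelial markers, in LNCaP and 22Rv1 in that order. PTPRC and COL1A2 were at 0 in every LNCaP library and CDH5 in all 12 libraries. Their part in the results was not tested, and in such bulk samples fewer cells of a kind and less RNA per cell cannot be told apart. The spread between replicates was wider in 22Rv1: edgeR's common biological coefficient of variation was 0.343 for the fit of its mimic and control libraries, and 0.0964 for that of LNCaP. Without the third library of both 22Rv1 groups it was 0.139 in 22Rv1, so results that rest on those libraries are given with and without them. The labels do not say whether replicates were separate cultures, so p-values measure only the spread between these samples.

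All 10 genes had reads in every library. Per length, as TPM, ADAR and IRF3 were the highest in each of the 4 groups. ADAR was at 109.1 ± 7.84 TPM (SD, n = 3) in LNCaP control and 102.4 ± 3.99 TPM in 22Rv1 control, and IRF3 was at 86.1 ± 14.4 and 107.9 ± 11.1 TPM. These 2 genes overlapped in every group, so their order was not resolved. TBK1 came next, at 34.0 ± 4.67 TPM in LNCaP control and 43.2 ± 1.03 TPM in 22Rv1 control, and did not overlap IRF3 or ADAR in any group. MAVS followed at 27.6 ± 1.07 TPM in LNCaP control, above EIF2AK2 at 17.1 ± 2.58 TPM without overlap. In 22Rv1 control these 2 were at 15.3 ± 3.33 and 15.2 ± 3.15 TPM and overlapped. The helicases, TLR3 and IKBKE were the low end of the set. In LNCaP control, IFIH1 was at 9.37 ± 1.56 TPM, DDX58 at 7.52 ± 0.589 TPM, IKBKE at 5.51 ± 0.454 TPM, DHX58 at 4.11 ± 1.29 TPM and TLR3 at 3.36 ± 0.894 TPM. Of the neighbours in this order, IFIH1 overlapped DDX58 and DHX58 overlapped TLR3. In 22Rv1 control the low end ran from DHX58 at 5.39 ± 1.47 TPM and IKBKE at 4.84 ± 2.22 TPM to IFIH1 at 3.39 ± 0.613 TPM, DDX58 at 2.39 ± 0.380 TPM and TLR3 at 0.730 ± 0.815 TPM. There each neighbour from DHX58 to DDX58 overlapped the next, and TLR3 lay below DDX58 without overlap. By their means DDX58 and IFIH1 thus ranked above DHX58 and IKBKE in the LNCaP controls, and below them in the 22Rv1 controls.

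The question which line carries the means to sense transfected RNA was first put to the control libraries. RIG-I, MDA5, TLR3 and the adaptor MAVS were lower in 22Rv1 than in LNCaP, and the other 6 genes did not pass the test. By the quasi-likelihood test of edgeR, with p-values adjusted by Benjamini-Hochberg over 17497 genes, 4 of the 10 genes were called at an adjusted p under 0.05 and all 4 were lower in 22Rv1. The lines differ widely, since 58.4% of all genes tested were called in either direction, 27.5% as lower and 30.9% as higher in 22Rv1. The share of the 10 genes called, 40%, was therefore below that of all genes. Their median log2 fold change was -0.12, against 0.01 over all genes tested. CPM below is the count relative to the library total, after TMM scaling over the 12 libraries.

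DDX58 was at 24.5, 25.8 and 23.0 CPM in the 3 LNCaP control libraries and at 9.48, 7.89 and 7.09 CPM in the 3 of 22Rv1 control. Every LNCaP library was above every 22Rv1 library. The log2 fold change was -1.59 (standard error, SE, 0.17, adjusted p = 0.000115 by edgeR), a 3.00-fold lower level.

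IFIH1 was at 17.3, 20.8 and 18.2 CPM in LNCaP control and at 6.97, 8.53 and 6.28 CPM in 22Rv1 control. The groups did not overlap. Its log2 fold change was -1.37 (SE 0.19, adjusted p = 0.000479 by edgeR), so that both signalling helicases were lower. DHX58, their regulator without signalling domains of its own, was at 3.78, 2.72 and 3.78 CPM in LNCaP control and at 4.06, 4.78 and 6.77 CPM in 22Rv1 control. Its groups did not overlap in CPM, but the log2 fold change of 0.59 (SE 0.32) was not called, with an adjusted p of 0.143 by edgeR.

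TLR3, the endosomal receptor, had the largest log2 fold change between the lines among the 10 genes. It was at 5.86, 7.03 and 5.42 CPM in LNCaP control, from 113, 137 and 89 counts, and at 0.683, 1.23 and 0.571 CPM in 22Rv1 control, from 15, 19 and 7 counts. The lowest LNCaP library was above the highest 22Rv1 library. The log2 fold change was -2.88 (SE 0.38, adjusted p = 0.000363 by edgeR), and the level in 22Rv1 rests on few reads. The genes outside the set whose log2(TPM + 1) followed TLR3 most closely over the 12 libraries, among 16708 genes, were BANP, RNF41 and CDK16, with a Pearson r of 0.951, 0.950 and 0.950. As the libraries fall into 2 lines, this likeness follows the difference between the lines.

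MAVS was at 245, 227 and 255 CPM in LNCaP control and at 157, 158 and 107 CPM in 22Rv1 control, again without overlap. The log2 fold change was -0.79 (SE 0.15, adjusted p = 0.00248 by edgeR), and it was -0.63 without the third 22Rv1 control library, the lowest of the 6. The adaptor was 1.73-fold lower, where the helicases that signal through it were 3.00-fold (DDX58) and 2.59-fold (IFIH1) lower, and the differences between these folds were not tested.

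The kinases, the transcription factor, PKR and ADAR did not pass the test between the lines. ADAR was at 427 ± 6.76 CPM in LNCaP control and 434 ± 38.5 CPM in 22Rv1 control, a log2 fold change of 0.01 with a 95% interval of -0.17 to 0.20. EIF2AK2 was at 71.3, 66.5 and 60.8 CPM against 86.9, 82.1 and 65.9 CPM, with a log2 fold change of 0.23 (adjusted p = 0.148 by edgeR). Without the third 22Rv1 control library, EIF2AK2 was called as higher in 22Rv1, at 0.34 (adjusted p = 0.00909 by edgeR), which made 5 of the 10 genes called, where 66.2% of all genes were. On the length-scaled log2(TPM + 1) values its difference was -0.17, below 0, and the length RSEM assigned to it was 4834 to 6303 bases in LNCaP control and 6196 to 7267 bases in 22Rv1 control. TBK1 was at 66.9, 70.1 and 57.3 CPM against 74.2, 76.4 and 75.6 CPM, with no overlap and a log2 fold change of 0.21 (adjusted p = 0.119 by edgeR). IRF3 and IKBKE overlapped between the lines, with log2 fold changes of 0.29 and -0.25 and adjusted p-values of 0.0823 and 0.329 by edgeR.

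**Figure D1:**
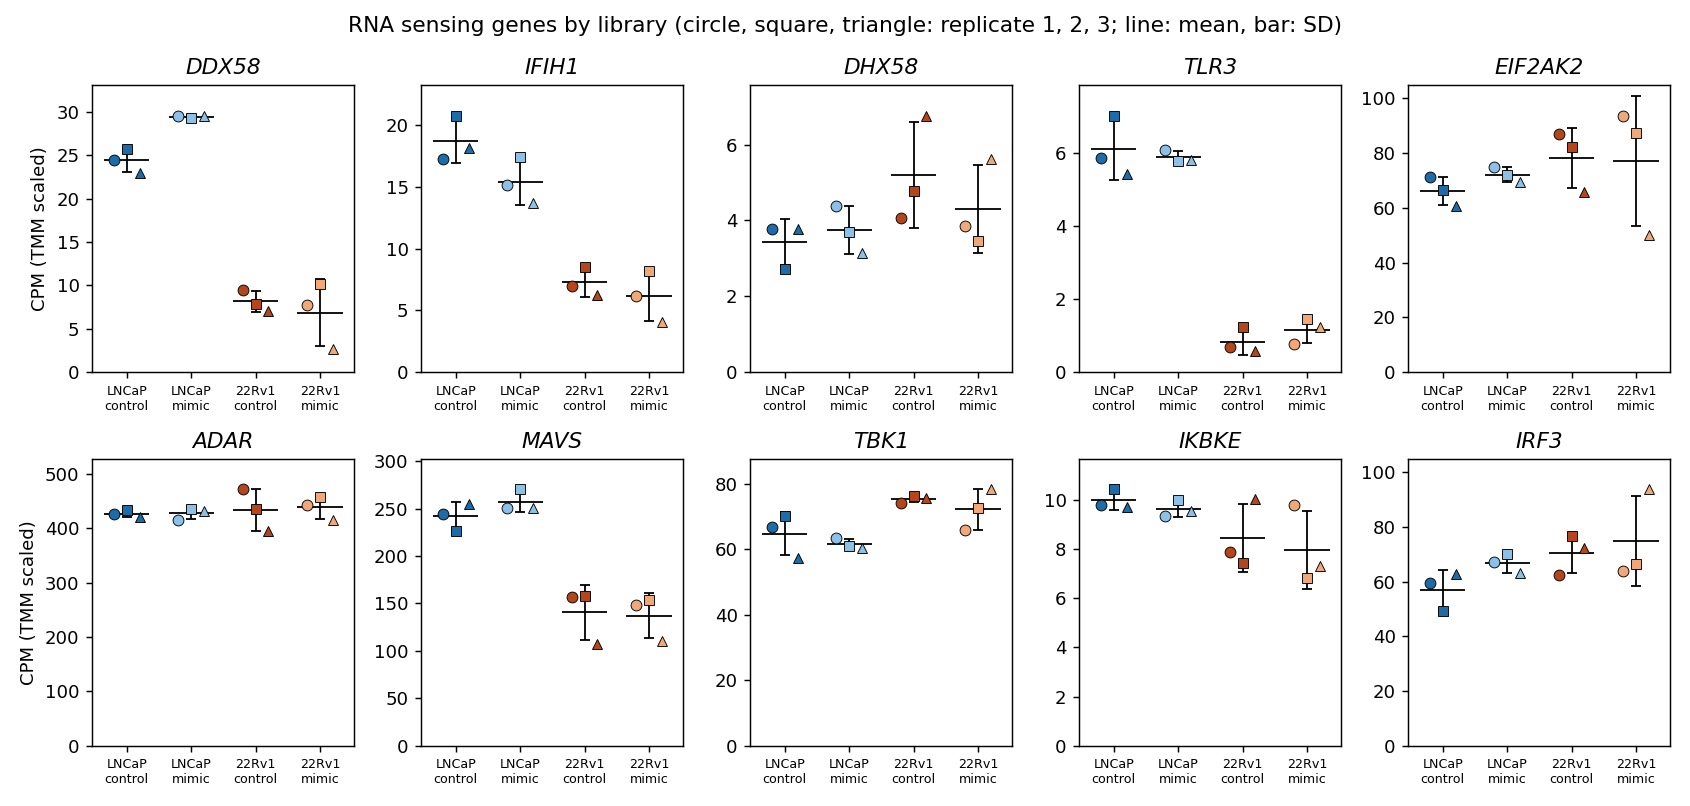
CPM (linear axis from 0) of each RNA sensing gene in each of the 12 libraries, grouped by line and arm, with the mean and the SD of 3 libraries. DDX58, IFIH1, TLR3 and MAVS sit lower in all 6 libraries of 22Rv1 than in all 6 of LNCaP, and the third 22Rv1 mimic library, a triangle, is the lowest of its group for DDX58, at 2.66 CPM, and for EIF2AK2, at 49.9 CPM.

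The same comparison in the mimic libraries called the same 4 genes lower in 22Rv1 and none higher. Over 17283 genes 52.4% were called by edgeR, 24.2% as lower and 28.2% as higher, against 40% of the 10 genes. DDX58 was at 29.5, 29.3 and 29.6 CPM in LNCaP mimic and at 7.70, 10.2 and 2.66 CPM in 22Rv1 mimic. Its log2 fold change was -2.09 (SE 0.43, adjusted p = 0.0064 by edgeR) and -1.71 without the third 22Rv1 mimic library, which was far below the other two. IFIH1 was at 15.1, 17.4 and 13.7 CPM against 6.19, 8.20 and 4.08 CPM, with a log2 fold change of -1.31 (SE 0.28), and -1.09 without that library. TLR3 was at 6.08, 5.78 and 5.80 CPM against 0.756, 1.45 and 1.23 CPM, with a log2 fold change of -2.34 (SE 0.34). MAVS was at 251, 270 and 251 CPM against 148, 154 and 110 CPM, with a log2 fold change of -0.90 (SE 0.14). None of these 4 genes overlapped between the lines in either arm, but the share of all genes without overlap was not counted. EIF2AK2 had a log2 fold change of 0.10 (SE 0.22) with all libraries, and of 0.33 (adjusted p = 0.00152 by edgeR) without the third 22Rv1 mimic library. The exact two-sided permutation test on the CPM of 3 against 3 libraries gave p = 0.1 for each of the 4 genes in each arm, the smallest it can give.

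**Figure D2:**
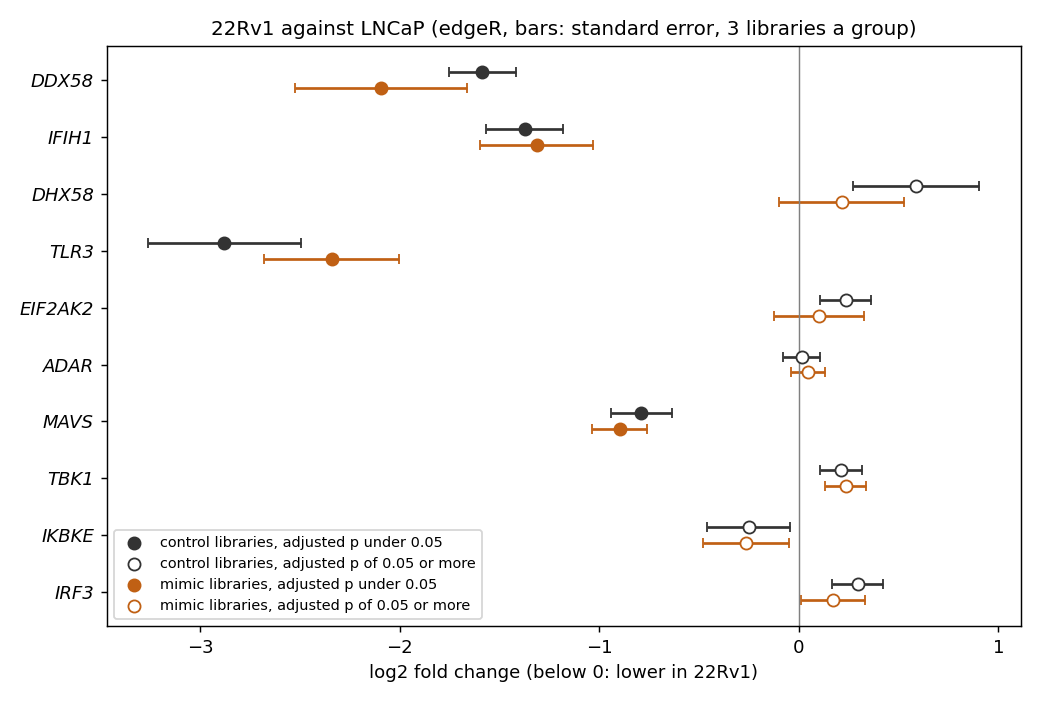
Log2 fold change of 22Rv1 against LNCaP for each gene, in control and in mimic libraries, with the standard error of edgeR's estimate. TLR3, DDX58, IFIH1 and MAVS lie below 0 in both arms as filled points, and the other 6 genes, which were not called, are open points of at most 0.59.

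Other genes of the pathway were counted by role, from lists that are not independent of earlier results on these data. The counts below stand against all genes tested, of which 27.5% were lower and 30.9% higher in 22Rv1 in the control libraries, and 24.2% lower and 28.2% higher in the mimic libraries. Helicase cofactors, which ready RIG-I and MDA5 for signalling, were lower in 8 and higher in 3 of 20 genes tested in the control libraries, with a median log2 fold change of -0.27, and the 11 called of 20 are near the 58.4% called of all genes. ZNFX1, a helicase that binds viral RNA at mitochondria, had a log2 fold change of -1.62 (SE 0.10). TRIM25, the ubiquitin ligase known for RIG-I activation, was at 184 ± 3.67 CPM in LNCaP control and 74.5 ± 17.6 CPM in 22Rv1 control. DDX60, an interferon-raised helicase, was at 16.7 ± 2.85 against 1.54 ± 0.217 CPM. In the other direction DDX1, a helicase with many roles in RNA handling, had a log2 fold change of 0.68 (SE 0.10). In the mimic libraries 9 of the 20 were lower and 1 was higher.

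Of the endosomal route, 6 of 10 genes tested were higher and 3 lower in 22Rv1 control, with a median log2 fold change of 0.33. The higher ones included RIPK1, at 0.87, and TRAF6, at 0.68, which pass on signals from several receptors. The lower ones were MYD88, the adaptor of most other Toll-like receptors, at -1.06, IRAK1, at -0.75, and TICAM1, the adaptor of TLR3 itself, at -0.41 (SE 0.13). The receptors for single-stranded RNA were hardly detected in either line, as TLR8 had 0 counts in all 12 libraries and TLR7 had 0 to 2. In the mimic libraries 3 of the 10 were higher and 2 lower, near the 28.2% and 24.2% of all genes. The 2 lower ones were IRAK1 and TICAM1, and MYD88 was not called there.

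Among the partners of the kinases and of IRF3, 10 of 18 genes were lower and 2 higher in 22Rv1 control, where 27.5% and 30.9% of all genes were, with a median log2 fold change of -0.50. IRF1, a transcription factor that sustains antiviral genes, was at 9.66 ± 1.52 CPM in LNCaP control and 2.19 ± 0.357 CPM in 22Rv1 control. IRF7, which amplifies interferon production, was at 18.7 ± 1.78 against 7.76 ± 0.529 CPM, and NFKB1, a subunit of NF-κB, had a log2 fold change of -1.50 (SE 0.26). TBKBP1, which binds TBK1, was at -1.44 (SE 0.19), while CHUK, a kinase of the NF-κB pathway, was at 1.17 (SE 0.11). In the mimic libraries 8 of the 18 were lower and 1 was higher, where 24.2% and 28.2% of all genes were. IRF7 had 1034 counts over LNCaP control and 388 over 22Rv1 control, but 971 over LNCaP mimic and 678 over 22Rv1 mimic.

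Negative regulators went both ways, with 10 of 19 genes lower and 6 higher in the control libraries, the latter near the 30.9% of all genes. TNFAIP3, a deubiquitinase that restrains NF-κB and IRF3 signalling, was at 6.78 ± 0.237 CPM in LNCaP control and 1.19 ± 0.0880 CPM in 22Rv1 control. NLRC5, at -3.59 (SE 0.47), is also the activator of class I antigen presentation genes. PCBP1 and RNF5, known for the removal of MAVS and STING1, were higher, at 0.84 and 0.93. Of the genes around PKR, 2 of 6 were lower and 1 was higher. The higher one was PPP1R15A, which restores translation after stress, at 2.92 ± 0.321 CPM in LNCaP control and 32.3, 28.9 and 119 CPM in 22Rv1 control. It reached 226 CPM in the third 22Rv1 mimic library, where the other two were at 26.1 and 29.8 CPM, so the third library of both groups held the most of it. In the mimic libraries 7 of the 19 negative regulators were lower and 6 higher, and of the genes around PKR 2 were lower and 1 higher. Without the third 22Rv1 control library 66.2% of all genes were called in either direction, and 50.88% of those calls were higher in 22Rv1. In that fit 10 helicase cofactors were lower and 3 higher, 11 partners lower and 2 higher, and 11 negative regulators lower and 6 higher. Of the genes around PKR 3 were lower and 2 higher, and of the endosomal route 3 were lower and 6 higher. Without the third 22Rv1 mimic library 69.5% of all genes were called in either direction, 50.99% of those calls as higher in 22Rv1. There 10 helicase cofactors were lower and 3 higher, 13 partners lower and 3 higher, and 10 negative regulators lower and 7 higher. Of the genes around PKR 3 were lower and 2 higher, and of the endosomal route 4 were lower and 5 higher.

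The OAS and IFIT effectors, antiviral genes that interferon raises and that sense or bind foreign RNA, were counted next. In the control libraries 7 of 12 tested were lower in 22Rv1, against 27.5% of all genes, namely OAS1, OAS2, OASL, IFIT1, IFIT2, IFIT3 and IFIT5, and ISG15 was among those that were higher. The median log2 fold change was -1.79. A gene entered a fit when it had enough counts in either group, and within 22Rv1 alone 7 of the 13 effectors were tested. Effectors near 0 in 22Rv1, such as OAS1, OASL and IFIT1 to IFIT3, entered through LNCaP and could only be called as lower. For these the filter fixed the direction of a call. OASL, a relative of the OAS enzymes that binds RIG-I, had 441, 438 and 243 counts in LNCaP control and 0, 0 and 10 in 22Rv1 control. IFIT1 had 400, 435 and 227 counts against 0, 0 and 22, and IFIT2 had 432, 403 and 313 against 3, 0 and 11. In the 22Rv1 controls the third library thus held most of the few reads. Over the 3 libraries of a group, IFIT1 was 43.4-fold higher in LNCaP control (95% interval 28.5 to 69.6, counting error only) and IFIT2 was 73.8-fold higher (43.8 to 135). OAS1, an enzyme that makes 2-5A on binding double-stranded RNA, had 168 counts over the LNCaP controls and 2 over the 22Rv1 controls, 75.6-fold higher per scaled library total (95% interval 20.6 to 629, counting error only). OAS3, the family member that binds long double-stranded RNA, was 45.3 ± 5.95 CPM against 40.7 ± 9.65 CPM and overlapped. ISG15 was at 70.0 ± 6.71 against 108 ± 15.8 CPM.

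In the mimic libraries 6 of the 12 tested were lower in 22Rv1, against 24.2% of all genes. MX2, an antiviral GTPase, was higher, with 20, 13 and 56 counts against 0, 0 and 4 in LNCaP mimic. Here too the filter fixed the direction of a call for effectors near 0 in 1 of the lines. IFIT3 had 168, 221 and 95 counts in LNCaP mimic and 0 in each 22Rv1 mimic library, at least 160-fold higher in LNCaP when 3 counts over the group are taken as the floor. Without the third 22Rv1 library of each arm, 7 of 12 effectors were lower and 2 higher in the control comparison. In the mimic comparison 8 of 13 were lower and 1 was higher. In these fits 66.2% and 69.5% of all genes were called in either direction, and 50.88% and 50.99% of those calls were higher in 22Rv1. In the control comparison ISG20, named after its values were seen, was then among the 7 and OAS2 was not. In the RefSeq windows, 7 of the 8 effectors with a window held the ISRE letters, against 3 of 8 for the sensing genes and 3.57% of all windows.

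Of the outputs of the pathway, 3 chemokines had reads in every LNCaP library and none in 22Rv1. CXCL10, a chemokine that IRF3 and interferon raise, had 39, 53 and 20 counts in LNCaP control, 48, 60 and 32 in LNCaP mimic and 0 in all 6 libraries of 22Rv1. This is at least 33.6-fold higher in LNCaP control than in 22Rv1 control, with the same floor, and at least 46.3-fold in the mimic arm. CXCL11 had 10 to 17 counts in LNCaP control and 15 to 20 in LNCaP mimic, and CCL5 had 8 to 15 and 11 to 20, while both were at 0 in all 6 libraries of 22Rv1. These chemokines were at most 3.69 CPM and so were near the limit of what this depth shows. IFNB1, interferon-β itself, had 0, 3 and 1 counts in LNCaP control, 3, 6 and 0 in LNCaP mimic and 0 in 22Rv1, and IL6 had 0 in all 12 libraries. TNF was read in both lines, with 10 to 18 counts in LNCaP control and 0 to 23 in 22Rv1 control, where the third library had the 23. IFNE had 0 to 6 counts in 22Rv1 mimic and 0 in the other groups, and IFNK had 0 to 3 in 22Rv1 control and 0 in the others. IFNL1 to IFNL4 had at most 2 counts in a LNCaP library and 0 in 22Rv1.

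**Figure D3:**
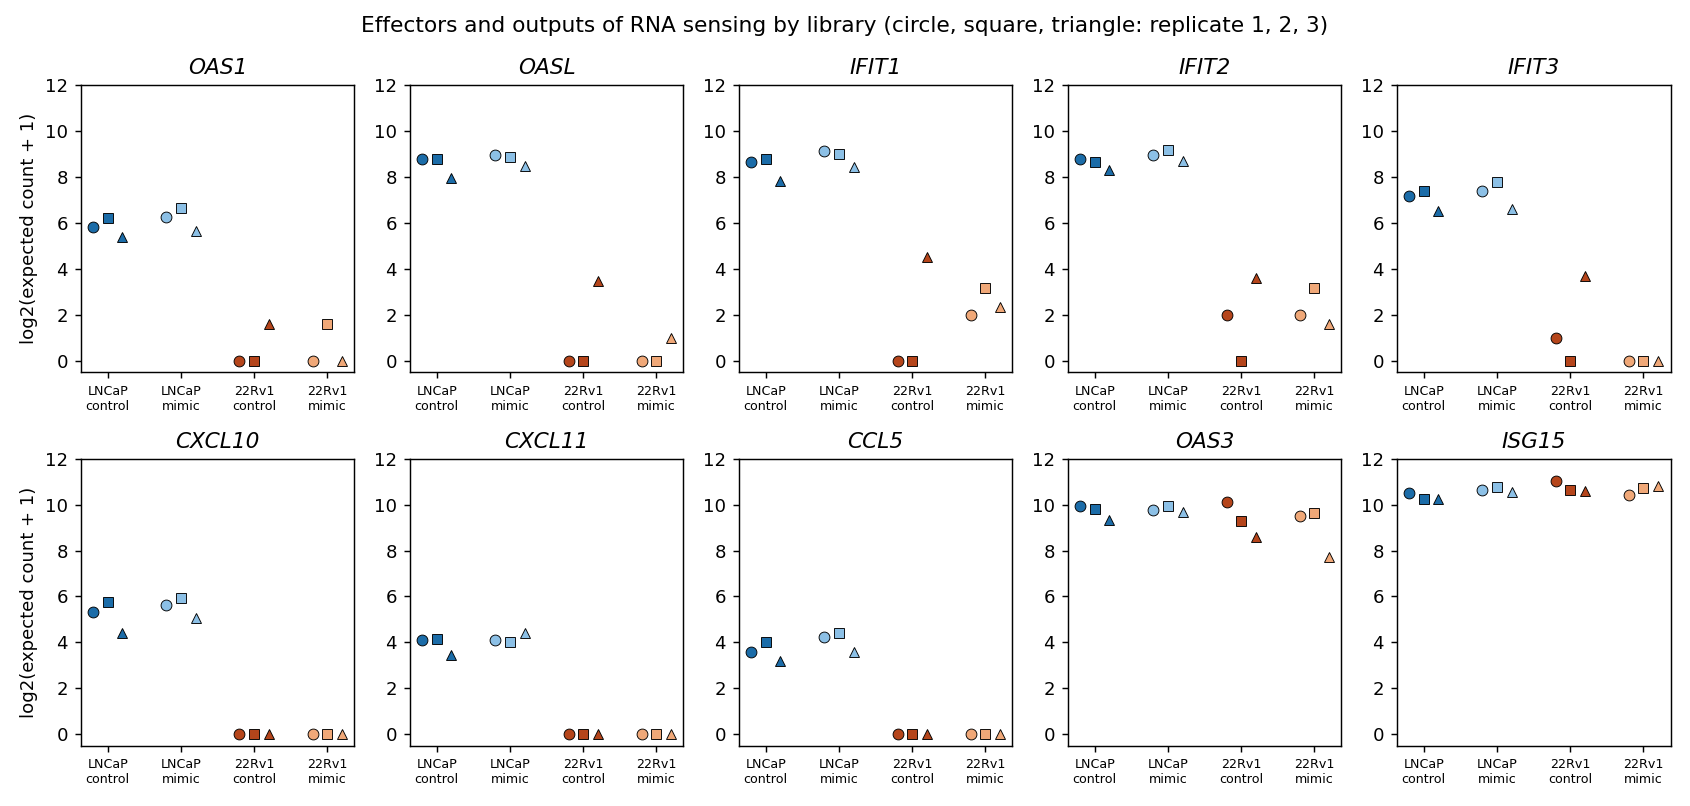
Expected counts on a log2(count + 1) axis for effectors and outputs of RNA sensing in each library, so that 0 stands for no read. OAS1, OASL and IFIT1 to IFIT3 lie at 0 to 22 counts in 22Rv1 and above 39 counts in LNCaP, CXCL10, CXCL11 and CCL5 lie at 0 in all 6 libraries of 22Rv1, and OAS3 and ISG15 overlap between the lines in counts.

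DNA sensing genes were looked at because STING1 also feeds TBK1. STING1 had 18 to 25 counts in LNCaP control and 0 to 3 in 22Rv1 control, 13.95-fold higher in LNCaP (95% interval 5.18 to 52.8, counting error only). In the mimic libraries STING1 was 5.492-fold higher in LNCaP (95% interval 3.145 to 10.25, counting error only). CGAS, the sensor before it, had 0 to 6 counts in every library. Of 5 genes of this route tested, 2 were lower and 1 was higher in 22Rv1 control, and in the mimic libraries 2 were lower and 0 higher. Without the third 22Rv1 library of the arm, 2 were lower and 1 was higher in each arm.

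Whether the mimic changed the sensing genes was tested within each line against its own controls. These controls are the libraries used in the comparison of the lines above, so the 2 kinds of comparison are not independent. In LNCaP 0 of the 10 genes had an adjusted p under 0.05 by edgeR, as did 0% of the 16244 genes tested. Of the 10 genes, 0 were called also by DESeq2 and by limma on log2(TPM + 1), and 433 of all genes tested had an unadjusted p under 0.05 by edgeR. The study used an unadjusted p below 0.05 together with a log2 fold change beyond 0.2 in size, applied to shrunken DESeq2 estimates. With these thresholds on the unshrunken edgeR estimates 3 of the 10 genes passed, where 2.22% of all genes did. These were DDX58 and IRF3, higher with the mimic, and IFIH1, lower with it. On shrunken DESeq2 estimates, as fitted here to the 6 LNCaP libraries, 0 of the 10 genes passed and 2 of 16243 genes in all. The study reported more genes than this by its rule in both lines, so the fit here did not reproduce its calls. The reason was not tested, and which of the 10 genes passed in the study's own fit is not known here. On unshrunken DESeq2 estimates DDX58 and IRF3 passed but IFIH1 did not, so the 3 calls depend on the estimate.

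DDX58 in LNCaP was at 24.5, 25.8 and 23.0 CPM with the control and at 29.5, 29.3 and 29.6 CPM with the mimic. Every mimic library was above every control library. The log2 fold change was 0.27 (SE 0.09, unadjusted p = 0.0124 and adjusted p = 0.999 by edgeR), or 1.20-fold. IRF3 was at 59.4, 49.1 and 62.8 CPM with the control and at 67.1, 70.1 and 63.2 CPM with the mimic. Its groups were apart by a small margin, and the log2 fold change was 0.23 (SE 0.09, unadjusted p = 0.0331 by edgeR). IFIH1 was at 17.3, 20.8 and 18.2 CPM with the control and 15.1, 17.4 and 13.7 CPM with the mimic, and these overlapped. Its log2 fold change was -0.28 (SE 0.13, unadjusted p = 0.0422 by edgeR). With 1 library left out, DDX58 ranged from 0.23 to 0.31, IRF3 from 0.13 to 0.30 and IFIH1 from -0.38 to -0.20. The exact two-sided permutation test gave p = 0.1 for DDX58 and IRF3 and p = 0.2 for IFIH1. The other 7 genes overlapped between the arms in LNCaP, and ADAR was at 427 CPM in both. The share of all genes without overlap between the arms was not counted.

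Downstream in LNCaP, 5 of the 12 OAS and IFIT effectors tested passed the study's thresholds on unshrunken edgeR estimates as higher with the mimic, where 1.38% of all genes did so, and 1 of 12, ISG15, passed on shrunken DESeq2 estimates. They are OAS3, OASL, IFIT1, IFIT2 and ISG15, named after their values were seen, and their direction was known from earlier results on these libraries, so it is not independent evidence. IFIT2 was at 20.7 ± 1.67 CPM with the control and 30.8 ± 6.25 CPM with the mimic, and ISG15 at 70.0 ± 6.71 and 100.1 ± 12.4 CPM, both without overlap. Of the 12, 0 had an adjusted p under 0.05 by edgeR. Without LNCaP control replicate 3, which had the fewest OASL and IFIT1 counts of the 3 controls, IFIT1, IFIT2 and ISG15 still passed on edgeR estimates and OAS3 and OASL did not. CXCL10 was at 1.22 to 2.72 CPM with the control and 1.86 to 3.69 CPM with the mimic, and these overlapped. Of the other lists, 1 of 20 helicase cofactors, 1 of 10 genes of the endosomal route and 2 of 18 partners passed on edgeR estimates, all as higher. Among 19 negative regulators, 4 outputs, 5 DNA sensing genes and 6 genes around PKR, 0 passed. Of all genes 1.38% passed as higher. Those that passed were RNF135, a cofactor of RIG-I, CNPY3, a chaperone of Toll-like receptors, and IRF9 and NFKBIA, partners in interferon and NF-κB signalling. They are named after their values were seen, and their shrunken estimates are not given here. RNF135 did not pass without LNCaP control replicate 3. In that fit TRADD of the endosomal route and DUSP4 of the negative regulators passed as higher. Of all 16658 genes 1008 passed there in either direction.

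The length that RSEM gave DDX58, the mean over its 2 listed transcripts weighted by their estimated share, was longer in the mimic libraries of both lines. It was 4532.8, 4520.5 and 4508.4 bases in LNCaP control and 4564.1, 4584.4 and 4423 bases in 22Rv1 control, and 4628 bases in each of the 6 mimic libraries. The 6 mimic libraries were thus apart from the 6 controls, as they were for 7 of 10796 genes with at least 30 counts in every library and a length that varied, or 0.0648%. TPM divides by this length and CPM does not.

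**Figure D4:**
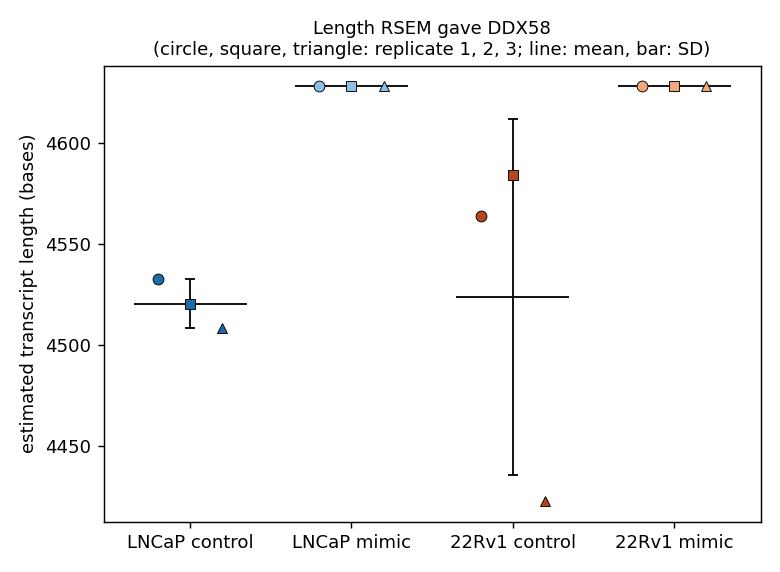
Length in bases that RSEM estimated for DDX58 in each library (the axis does not start at 0), with the mean and SD of 3 libraries. All 6 mimic libraries lie at 4628 bases and the 6 control libraries lie between 4423 and 4584.4 bases.

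In 22Rv1 none of the 10 genes passed by adjusted p or by the study's thresholds, on edgeR or DESeq2 estimates. By adjusted p, 0% of the 16898 genes tested were called by edgeR, 250 had an unadjusted p under 0.05, and 1.48% passed the study's thresholds on edgeR estimates, and of the 10 genes 0 had an unadjusted p under 0.05. DDX58 was at 9.48, 7.89 and 7.09 CPM with the control and at 7.70, 10.2 and 2.66 CPM with the mimic. The groups overlapped widely, and the log2 fold change was -0.25 (SE 0.47). Without the third library of both groups it was 0.051. TLR3, at 0.683, 1.23 and 0.571 CPM against 0.756, 1.45 and 1.23 CPM, had the largest log2 fold change of the 10, 0.46 (SE 0.57), and DHX58 the lowest, -0.27 (SE 0.36). With such spread a change of the size seen for DDX58 in LNCaP was not detectable in 22Rv1. The OAS and IFIT effectors had 0 of 7 genes tested called either way, and CXCL10, CXCL11 and CCL5 stayed at 0 counts in each 22Rv1 mimic library. IRF7 passed the study's thresholds on edgeR estimates in 22Rv1, at 7.76 ± 0.529 CPM with the control and 14.2 ± 4.86 CPM with the mimic, named after its values were seen.

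**Figure D5:**
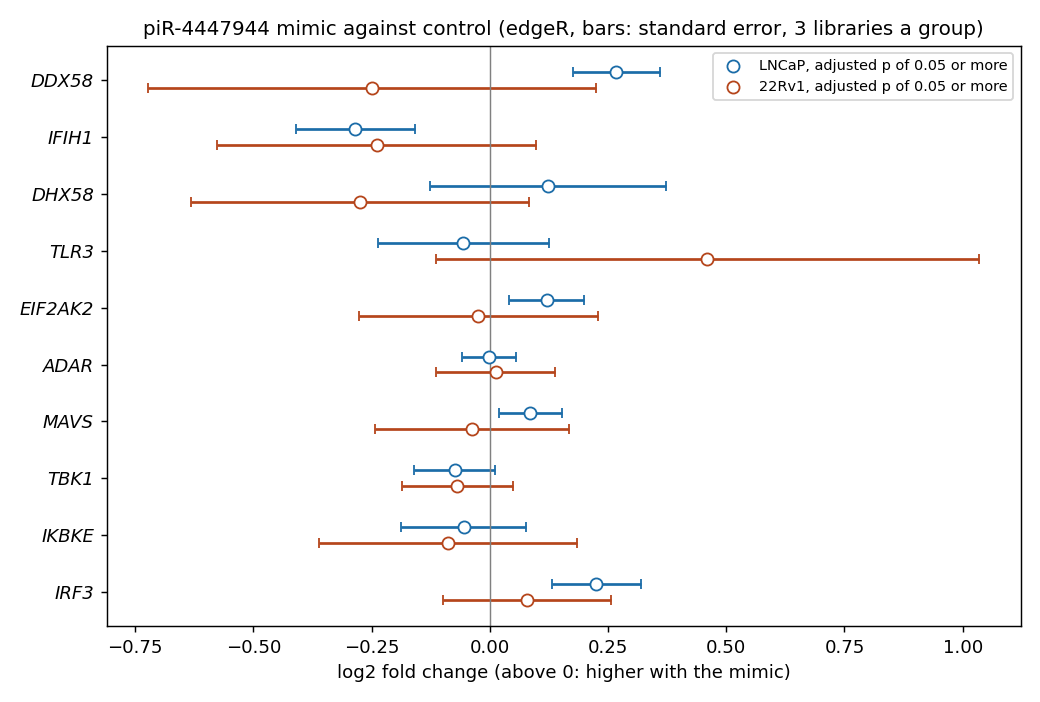
Log2 fold change of mimic against control libraries for each RNA sensing gene in LNCaP and 22Rv1, with the standard error of edgeR's estimate. All points are open, as none had an adjusted p under 0.05; in LNCaP DDX58 and IRF3 lie above 0 and IFIH1 below, and the standard errors in 22Rv1 reach 0.57.

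The difference between the lines in the effect of the mimic was tested itself, as an interaction over all 12 libraries. Of the 18720 genes 0% had an adjusted p under 0.05 by edgeR and 3.26% an unadjusted p under 0.05, and of the 10 genes 0 had either. The difference was -0.52 (SE 0.47, 95% interval -1.44 to 0.40) for DDX58 and 0.52 (SE 0.48, 95% interval -0.42 to 1.46) for TLR3 on the log2 scale. The 2 lines were therefore not shown to differ in the effect of the mimic on these genes, and the intervals are wide enough to hold a 2-fold difference for both. Of the 13 effectors tested, 0 were called. OAS2, IFIT3 and ISG15 had an unadjusted p under 0.05 by edgeR, with a lower effect in 22Rv1, and are named after their values were seen. OAS2 and IFIT3 entered this fit through LNCaP. In 22Rv1 they had 6 and 13 counts over the controls and 0 over the mimic libraries, so their differences rest on few reads. For ISG15 the difference was -0.60 (unadjusted p = 0.0109 by edgeR).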

How the data were processed

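RNA of 12 libraries was sequenced, 3 in each of 4 groups named by the labels. Per the labels and the study's methods, the authors aligned reads to hg38 with STAR 2.7.1a and estimated levels with RSEM 1.3.0; R 4.1.1 and DESeq2 1.34.0 are also in the submitters' processing notes. The authors deposited an expected count per gene, RSEM's estimate of the reads from it, which is not whole where reads are shared (7.63% of values), and TPM, which is scaled by transcript length and library. The annotation release and the strand setting are not given in the sources used here. A table that joins the TPM of all libraries held the same values.

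Expected counts were rounded and tested with edgeR 4.0.16 (quasi-likelihood, TMM, filterByExpr) in R 4.3.3, each comparison on its own 6 libraries and the interaction on all 12, with an adjusted p under 0.05 called. Alternatives were DESeq2 1.42.0 on counts, limma 3.58.1 on log2(TPM + 1) and log2(TPM + 0.1) for genes of at least 1 TPM in 3 libraries, other scalings and filters, a replicate block, and fits with 1 library left out. The scripts were tested on simulated data. A single gene was also compared by the exact two-sided permutation test, whose smallest p for 3 against 3 is 0.1.

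The 10 genes and the lists of other genes were chosen with earlier results of these data known. Named were the 10 genes in every comparison, from each list up to 4 called genes in each direction by size of log2 fold change, the outputs with at least 10 counts in a library, and the 3 genes most like the one that differed most between the lines. IFNB1, IL6, TLR7, TLR8, OAS3, CGAS and the cell type markers were named beyond this rule, for their role. So were OAS2, IFIT5, ISG20, RNF135, TRADD, DUSP4, IRF9, IFNE, IFNK and IFNL1 to IFNL4, after their values were seen.

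Replicate numbers are shared by the groups. Deviations from the group means of same-numbered 22Rv1 control and mimic libraries correlated at 0.198, 0.167 and 0.355, so the numbers paired those libraries by their values only; for LNCaP the values were 0.021, 0.005 and 0.189, and across the lines at most 0.104. Promoter windows came from RefSeq (GRCh38.p14) and gene positions from GENCODE v44. Depth was 12161091 to 22179601 counts, intervals on counts cover counting error only, and 0 pairs of libraries were identical. Proteins of the 10 genes and the sequence of the mimic are not used here, and some items are not reported here.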

Additional observations from a re-analysis of the deposited data

Results flagged for a closer look

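The length RSEM gave DDX58 was flagged because it is a signal outside the counts and levels that were compared, and because it differed from that in the control libraries. It was 4628 bases in each of the 6 mimic libraries of both lines, and 4423 to 4584.4 bases in the 6 control libraries. Among 10796 genes with at least 30 counts in every library and a length that varied, 57 had an equal length in the 6 mimic libraries only and 47 in the 6 control libraries only. The number of reads that decided between the 2 transcripts of DDX58 is not given by the files used here, and the cause was not tested. Groups of 3 libraries are too small for a test of a single outlying library, so none was made.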

How the results depend on the processing

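Between the lines, DDX58, IFIH1, TLR3 and MAVS were called as lower in 22Rv1 in 59 of 59 alternative values in the control libraries and in 60 of 60 in the mimic libraries; their size depended on the scale, as TLR3 was -1.41 on log2(TPM + 1) in the control libraries and -0.95 in the mimic libraries, against -2.88 and -2.34 by edgeR. TLR3 fell below the filter of at least 10 counts in every library in the control libraries. With a change of at least 2-fold also required, 6043 of all genes were called in the control and 5660 in the mimic libraries. With 1 library left out, the number of genes called ranged from 8453 to 12117 in the control and from 6888 to 12494 in the mimic libraries, highest without the third 22Rv1 library in both. Of the uncalled genes, EIF2AK2 turned to -0.17 and -0.18 by limma with a pseudocount of 1 and 0.1 in the control libraries and to -0.45 and -0.49 in the mimic libraries, where it ranged from -0.061 to 0.33 with 1 library left out. ADAR turned in the control libraries to -0.025 with no filter and to -0.089 and -0.090 by limma, and ranged from -0.048 to 0.077 with 1 library left out. By limma the median log2 fold change of all genes in the control libraries was -0.11 and -0.12, against 0.01 by edgeR, so these values lie close to that shift for ADAR. TBK1 was called by limma in the mimic libraries.

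For the mimic in LNCaP, the genes called numbered 46 with no filter, 2 by DESeq2, 1 by limma with either pseudocount and 361 by the study's thresholds on edgeR estimates, and 0 to 2 with 1 library left out, 2 without LNCaP control replicate 3. For the mimic in 22Rv1 they numbered 4 by DESeq2, 2 and 3 by limma, 4 without the third libraries of both 22Rv1 groups and 250 by those thresholds. DDX58 there ranged from -0.65 to 0.14 with 1 library left out and was 0.051 without the third library of both groups. For the difference between the lines they numbered 3 by DESeq2 without shrinkage, 2 and 1 by limma, and 0 to 1 with 1 library left out. The study's thresholds in LNCaP were passed by 208 genes on unshrunken and 2 on shrunken DESeq2 estimates, by 3, 2 and 0 of the 10 genes on edgeR, unshrunken and shrunken DESeq2 estimates, and by 5, 5 and 1 of the effectors. None of the 10 genes was among the other calls listed here for the mimic. The cause of these changes was not tested.

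With the replicate block, 9713 genes were called between the lines in the control libraries, 8276 in the mimic libraries and 0 in each of the other comparisons, and 4 of the 10 genes in each of the first 2; it changed no call of the 10 genes. DESeq2 without shrinkage, the study's thresholds on DESeq2 estimates and the lists with libraries left out were chosen after seeing the data. Shrunken DESeq2 estimates for the difference between the lines were not run. At this depth TLR3 in 22Rv1, with 7 to 26 counts, and the chemokines are limited by counting error.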

Other observations

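The length RSEM gave TBK1 was 2648.9 to 2864.7 bases in the 6 LNCaP libraries and 2149.9 to 2523.6 bases in the 6 of 22Rv1, without overlap. For EIF2AK2 it was 4833.9 to 6303.2 bases in LNCaP and 6196.2 to 9093.9 bases in 22Rv1, with overlap, and for TLR3 in 22Rv1 it ran from 1183.1 to 4276.1 bases, so that TPM of TLR3 there rests on an unsteady length. Of the 12 outputs of the pathway with a window, 5 held the ISRE letters, as did 3 of 15 of the helicase cofactors and 0 of 17 of the negative regulators, against 3.57% of all windows.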
